A study of Mus musculus with 8 samples.

Results

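The sodium potassium pump (Na,K-ATPase) is described here through the genes of its beta subunits, Atp1b1, Atp1b2 and Atp1b3, in detached mouse retinas. The 3 genes were taken by their symbols, and each matched 1 of the 56465 features in the deposited table, of which 25972 carry a gene symbol. All 3 were among the 19798 features tested, those with a mean of at least 10 normalized reads. Messenger RNA was measured by sequencing in 4 retinas of TG mice (replicates 2, 5, 6 and 8), which express human transferrin, the iron carrier of plasma, and in 4 retinas of WT mice (replicates 3, 4, 5 and 7). All mice carry the label C57Bl/6J, and every retina had been detached by injecting 10 µl of sodium hyaluronate beneath it and was taken 4 days later, so no attached retina enters the comparison. TG held 2 females and 2 males with 2 left and 2 right eyes, and WT held 1 female and 3 males with 1 left and 3 right eyes. The sources used here give neither the promoter of the transgene nor the age or breeding of the mice. Nor do they tie each retina to a mouse of its own, so the p-values below rest on the spread among these 8 samples, which may be partly technical.

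The pump exports sodium and imports potassium at the cost of ATP, and so maintains the gradients on which the excitability of neurons rests. In the retina a large part of its work balances the sodium that enters photoreceptor outer segments in darkness, and the pump itself lies in the inner segments. Each pump pairs a catalytic alpha subunit with a glycosylated beta subunit, which crosses the membrane once and is needed for the alpha subunit to fold and reach the cell surface. Beta 1, from Atp1b1, is the widespread form. Beta 2, from Atp1b2, was first described as the adhesion molecule on glia (AMOG), and in mice its loss causes photoreceptor degeneration. Beta 3, from Atp1b3, is a further widely expressed form.

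The libraries held 61535690 to 70540242 counted reads in TG and 68433927 to 75866423 in WT, of which 20.4% to 22.3% were mitochondrial in TG and 21.9% to 27.5% in WT. All 20 rod photoreceptor genes listed were measured, and their summed level was 5244334 to 8159368 normalized reads in TG and 5879573 to 6810276 in WT. Summed marker genes of tissues beside the retina were unequal between libraries, and whether such tissue was carried over was not tested. Summed lens genes reached 6066 in TG 5, 22221 in TG 6 and 27270 in WT 3, against 160 to 936 normalized reads in the other 5 libraries. Summed pigment epithelium genes reached 103698 in WT 3, against 7680 to 46269 in TG and 5013 to 13876 in the other WT libraries. Summed oligodendrocyte and myelin genes reached 11012 in WT 3, against 708 to 997 in TG and 545 to 953 in the other WT libraries. Values without WT 3 and TG 6, which had the highest lens sums, are therefore given beside the members' TG and WT differences. TG 5 stays in those values.

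Atp1b1 lies on chromosome 1 from 164437097 to 164458356, Atp1b2 on chromosome 11 from 69599742 to 69605961, and Atp1b3 on chromosome 9 from 96332673 to 96364347 (deposited table, mm10). All 3 are annotated as protein-coding genes on the minus strand in GENCODE M21, which is on the same build. The full-length coding transcript of each in that annotation has 6 exons and 304 codons for Atp1b1, 7 exons and 290 codons for Atp1b2, and 7 exons and 278 codons for Atp1b3. The Atp1b1 feature shares 629 bases at its 3′ end with Nme7, a gene on the opposite strand that averaged 486 normalized reads in TG and 439 in WT. Whether the counting used strand is not stated in the sources, so reads in those bases could not be assigned with certainty. Both of the other overlapping features, which carry no symbol (1 inside Atp1b1 and 1 inside Atp1b3), were at 0 in all 8 libraries.

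Promoter windows from RefSeq (GRCm38.p6) were matched for 2 of the 3 genes, Atp1b1 and Atp1b3, and are printed to show what letters precede the starts of these members. Each is the 250 bases before a gene start, 5′ to 3′ on the minus strand, at chr1:164458356-164458605 for Atp1b1 and chr9:96364432-96364681 for the first of the 2 Atp1b3 starts. Capitals mark matches, on either strand, to the GC box GGGCGG, the CCAAT box CCAAT, the TATA box TATAAA or the run TATATA.
Atp1b1: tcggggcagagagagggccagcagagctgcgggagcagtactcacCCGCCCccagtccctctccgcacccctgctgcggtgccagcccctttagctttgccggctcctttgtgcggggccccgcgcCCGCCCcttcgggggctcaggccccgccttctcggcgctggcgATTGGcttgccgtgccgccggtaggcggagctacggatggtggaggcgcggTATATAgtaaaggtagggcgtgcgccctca
Atp1b3: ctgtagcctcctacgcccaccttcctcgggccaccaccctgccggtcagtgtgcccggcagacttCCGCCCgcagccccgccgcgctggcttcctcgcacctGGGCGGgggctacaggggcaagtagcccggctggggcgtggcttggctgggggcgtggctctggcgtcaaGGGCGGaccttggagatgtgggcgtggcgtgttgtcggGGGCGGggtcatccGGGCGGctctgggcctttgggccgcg
The Atp1b1 window held 2 GC boxes, 1 CCAAT box, 1 TATATA that began 30 bases before the start, and 0 matches to TATAAA. The printed Atp1b3 window held 5 GC boxes and 0 matches to the other motifs, and the window of its second start, at chr9:96363716-96363965, held 0 matches to any of them. Among 32851 RefSeq windows of this length, 32.7% held a GC box, 33.8% a CCAAT box, 12.4% TATAAA and 5.25% TATATA. G and C made up 70.4% of the Atp1b1 window and 73.6% and 76.8% of the Atp1b3 windows, against a median of 52.4%.

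Atp1b2 was the most abundant of the beta messages in every library. Per kb of its transcript (2842 bases) Atp1b2 had 6523 ± 1147 normalized reads in TG and 7973 ± 1102 in WT (SD, n = 4 each). Atp1b1 (2580 bases) followed with 3076 ± 906 in TG and 2794 ± 834 in WT, and Atp1b3 (1994 bases) had 927 ± 141 in TG and 810 ± 375 in WT. The order was the same in all 8 libraries, and the 3 ranges did not meet: 5033 to 9568 for Atp1b2, 1697 to 3928 for Atp1b1 and 496 to 1351 for Atp1b3. Dividing by the union of all annotated exons, which lowers levels per kb, kept them apart, at 3501 to 6656, 1421 to 3289 and 414 to 1127. Of the beta reads per kb, Atp1b2 made up 62.0% ± 7.90 in TG and 69.3% ± 4.28 in WT, Atp1b1 29.1% ± 7.16 in TG and 23.8% ± 4.46 in WT, and Atp1b3 8.90% ± 1.66 in TG and 6.81% ± 1.95 in WT (SD, n = 4 each). TG 8 had the lowest Atp1b2 share, 51.0%, and WT 3 the highest, 75.3%. The annotation behind the authors' counts is not stated in the sources, so the lengths are those of GENCODE.

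**Figure D1:**
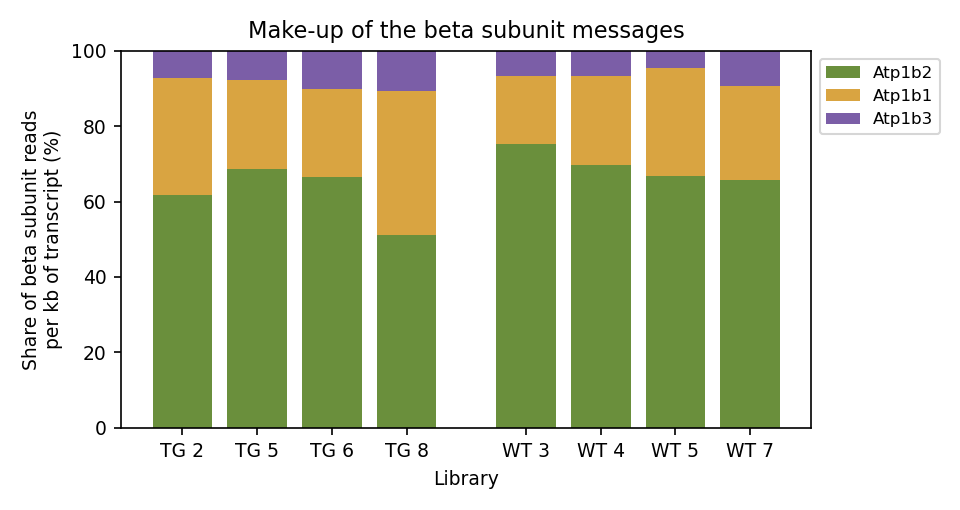
Share of each beta subunit gene (percent of the summed normalized reads per kb of transcript) in each library, TG at the left and WT at the right. Atp1b2 holds the most in every bar, from 51.0% in TG 8 to 75.3% in WT 3.

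Atp1b2, the beta form tied to photoreceptor survival in mice, had a lower mean in TG than in WT retinas, a difference that did not pass the test. It had 22224 normalized reads in TG 2, 18482 in TG 5, 19141 in TG 6 and 14303 in TG 8, against 20273 in WT 3, 22255 in WT 4, 20924 in WT 5 and 27191 in WT 7. In 3 of the 4 TG libraries it lay below every WT library, while TG 2 lay within the WT range, so the groups overlapped. The means were 18537 ± 3260 in TG and 22661 ± 3131 in WT (SD, n = 4 each). The log2 fold change was -0.30 ± 0.15 (SE), a ratio of 0.814 with a 95% interval from 0.649 to 1.02 (adjusted p = 0.92, limma). Without TG 8, the library with the least Atp1b2, the log2 fold change was -0.18. The unadjusted limma p of Atp1b2 was 0.071, and 7.04% of all features tested had a smaller one. Of the features tested, 2 passed in either direction, 0.0101%, and 4.64% had an unadjusted p under 0.05. By eye, the TG values were 18482 and 14303 against 20273 to 22255 in WT among right eyes, and 22224 and 19141 against 27191 in the only WT left eye. Of all features tested, 6.68% likewise lay apart in one direction within both sides. By sex, the TG values were 14303 and 19141 against 27191 in the only WT female, and 18482 and 22224 against 20273 to 22255 in WT among males, who overlapped. With eye as a term the log2 fold change was -0.39 (adjusted p = 0.92, limma). In males only it was -0.060, without WT 3 and TG 6 it was -0.37, with the summed rod markers as a term it was -0.29, and none of these passed.

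Atp1b1, the widespread form, differed between the groups by less than the spread among their libraries. It had 10133 normalized reads in TG 2, 5736 in TG 5, 6103 in TG 6 and 9771 in TG 8, against 4379 in WT 3, 6897 in WT 4, 8131 in WT 5 and 9428 in WT 7. TG 2 and TG 8 lay above all WT libraries, and TG 5 and TG 6 lay within the WT range. The means were 7936 ± 2338 in TG and 7209 ± 2151 in WT (SD, n = 4 each), a log2 fold change of 0.15 ± 0.24 (SE) with an adjusted p of 0.96 in limma. The 95% interval of the ratio ran from 0.770 to 1.59. Without WT 3, the library with the least Atp1b1, the log2 fold change turned to -0.076, and without both WT 3 and TG 6 it was 0.034. It was 0.012 without TG 2 and 0.029 without TG 8.

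Atp1b3 likewise did not pass. It had 1826 normalized reads in TG 2, 1458 in TG 5, 2023 in TG 6 and 2083 in TG 8, against 1285 in WT 3, 1495 in WT 4, 988 in WT 5 and 2694 in WT 7. All 4 TG libraries lay within the WT range, which WT 7 alone widened upward. The means were 1847 ± 282 in TG and 1616 ± 748 in WT (SD, n = 4 each), a log2 fold change of 0.28 ± 0.25 (SE) with an adjusted p of 0.92 in limma. The ratio was 1.22 with a 95% interval from 0.832 to 1.78. WT 7 and WT 5 set its size, since the log2 fold change was 0.56 without WT 7 (unadjusted p = 0.012, adjusted p = 0.94, limma) and 0.081 without WT 5. Leaving out both WT 3 and TG 6 gave 0.16, and a term for sex gave 0.12 and one for eye 0.14.

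**Figure D2:**
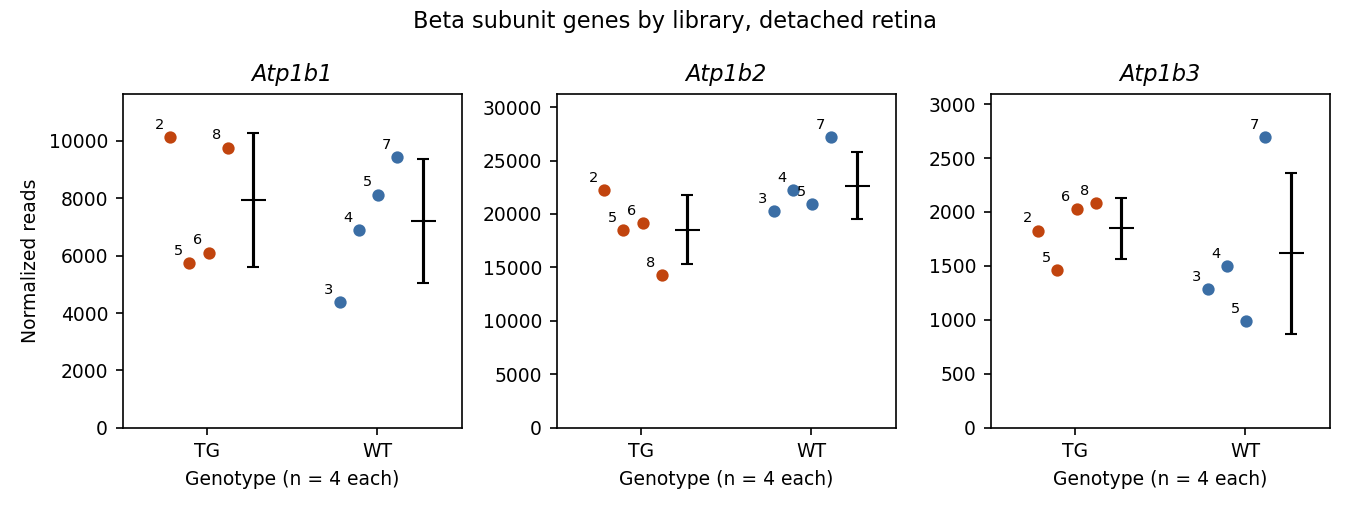
Normalized reads of Atp1b1, Atp1b2 and Atp1b3 in each library (points, with the replicate number), TG left of WT, with the mean and SD beside them (n = 4 each). The groups overlap in all 3 panels, and 3 of 4 TG libraries lie below every WT library for Atp1b2.

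**Figure D3:**
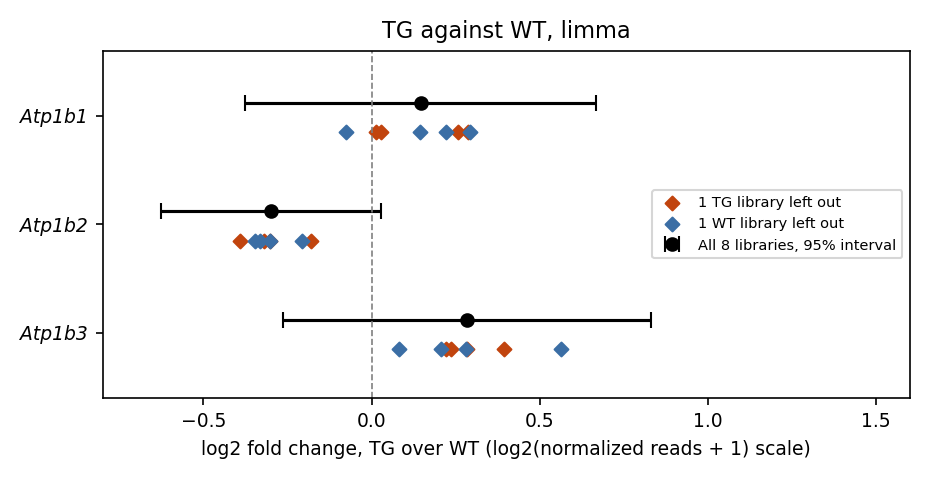
Log2 fold change of TG over WT for the 3 genes with its 95% interval (black), and the values with 1 library left out (diamonds, coloured by the group of that library). The black intervals all include 0, and the diamonds lie below 0 for Atp1b2, above 0 for Atp1b3 and on both sides for Atp1b1.

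The spread between libraries was wider for Atp1b1 and Atp1b3 than for most genes of similar level. The residual SD within groups, on the log2 scale, was 0.46 for Atp1b1, 0.23 for Atp1b2 and 0.46 for Atp1b3. The 200 features nearest in mean had a median SD of 0.20, 0.21 and 0.24 around each of them. The SD of Atp1b1 exceeded that of 97.0% of those features, that of Atp1b3 91.0% and that of Atp1b2 62.0%.

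The balance between the beta messages was compared within each library, where the scaling factor cancels. Reads of Atp1b2 per read of Atp1b1 were 2.50 ± 0.835 in TG and 3.33 ± 0.907 in WT (SD, n = 4 each). The mean log2 ratio differed by -0.44 between TG and WT (adjusted p = 0.34 over the 3 ratios, two-sided exact permutation test). TG 8 and WT 3 set its size, since it was -0.21 without TG 8 and -0.27 without WT 3. Reads of Atp1b3 per read of Atp1b2 were 0.103 ± 0.0308 in TG and 0.0692 ± 0.0217 in WT, a log2 difference of 0.58 (p = 0.11, adjusted p = 0.34, same exact permutation test). They ran from 0.0789 to 0.146 in TG and were 0.0634, 0.0672 and 0.0472 in WT 3, WT 4 and WT 5, while WT 7, at 0.0991, lay within the TG range. For Atp1b3 to Atp1b1 the log2 difference was 0.14 (adjusted p = 0.77), and it turned negative without TG 6 (-0.021) and without WT 5 (-0.14). Without both WT 3 and TG 6 the log2 differences were -0.40 for Atp1b2 to Atp1b1, 0.53 for Atp1b3 to Atp1b2 and 0.13 for Atp1b3 to Atp1b1. None of the 3 passed. With 4 libraries against 4 the smallest unadjusted p this test can give is 0.029. A single ratio at that p would not have passed the adjustment over the 3, so their not passing decides little.

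Over the 8 libraries, Atp1b1 was higher where the markers of amacrine and horizontal cells were higher and lower where those of lens were higher. The relation with the amacrine and horizontal cell markers passed the correction in rank, in a test that was not planned, and no linear relation did. In a bulk retina, fewer cells of a type and less RNA per cell cannot be told apart. The log2 level of Atp1b1 was compared with the summed markers of each of 13 cell types or tissues, as were those of the other members. The 39 relations were adjusted together, separately for Pearson's r and for Spearman's rho. No adjustment was made over both measures at once, so the pass in rank holds among the rank tests only. The plan for the markers held no test, so these tests were an addition to it. With the 14 amacrine and horizontal cell genes, Pearson's r was 0.893 (permutation p = 0.0018, adjusted p = 0.069) and Spearman's rho 0.952 (permutation p = 0.0011, adjusted p = 0.044), and r was 0.911 without TG 8 and WT 3, the libraries farthest from the median of those markers. Each of those 14 genes had a positive r with Atp1b1 (median 0.736). So did each of the 12 ganglion cell genes (median 0.699) and 12 of the 14 bipolar cell genes (median 0.667). The summed bipolar cell markers had an r of 0.557, and 0.236 without TG 2 and TG 8. Positive r was also usual among endothelial cell and pericyte (10 of 12, median 0.527), Mueller glia (11 of 15, 0.403) and red blood cell genes (5 of 5, 0.135). It was found for 8 of 20 rod and 5 of 11 cone genes, and for at most 2 genes in each remaining list. The share over all features was not counted. Calb2 was the largest part of the amacrine and horizontal cell sum, averaging 18629 of 41912 normalized reads in TG and 14675 of 33367 in WT. The marker sum was 45072 in TG 2, 31676 in TG 5, 33424 in TG 6 and 57475 in TG 8, against 24543 in WT 3, 34577 in WT 4, 34084 in WT 5 and 40263 in WT 7, and the groups overlapped. With the 12 ganglion cell genes, r was 0.820 (permutation p = 0.016, adjusted p = 0.21) and rho 0.810 (permutation p = 0.022, adjusted p = 0.28), and r was 0.664 without TG 5 and WT 3. Photoreceptor sums went the other way, with an r of -0.220 for the rod markers and -0.543 for the cone markers. The 3 libraries with lens sums of 6066 or more, TG 5, TG 6 and WT 3, were also those with the least Atp1b1. With the summed lens genes, r was -0.879 (permutation p = 0.0047, adjusted p = 0.091) and rho -0.762 (permutation p = 0.037, adjusted p = 0.36). Without TG 6 and WT 3 r was -0.793, but that value keeps TG 5, the remaining library with a high lens sum. With each group's mean removed, r was 0.924 for the amacrine and horizontal cell markers, 0.816 for the ganglion cell markers and -0.954 for the lens markers, values given as descriptions. The part of these markers in the TG and WT values of Atp1b1 was not tested.

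**Figure D4:**
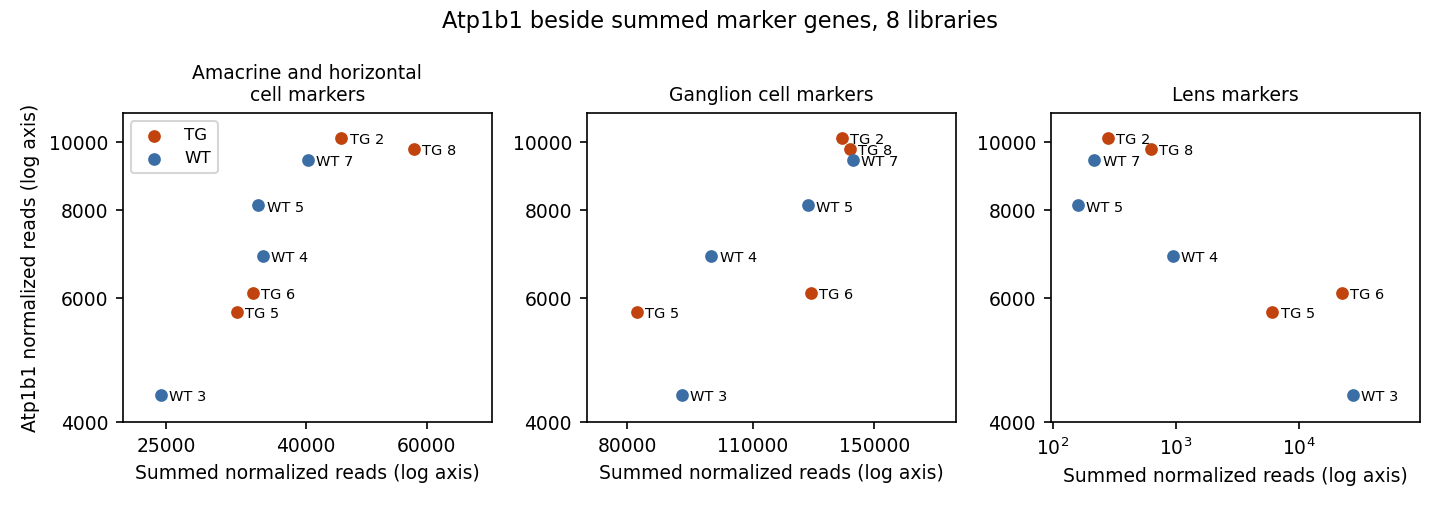
Atp1b1 normalized reads against the summed normalized reads of amacrine and horizontal cell, ganglion cell and lens markers in the 8 libraries (all axes logarithmic; TG and WT by colour). Atp1b1 tends to be higher where the amacrine and horizontal cell sum and the ganglion cell sum are higher. It is lowest in TG 5, TG 6 and WT 3, the libraries with the highest lens marker sums.

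Neither Atp1b2 nor Atp1b3 had a relation with an unadjusted Pearson permutation p under 0.05. By rank, Atp1b3 and the ganglion cell markers had a rho of 0.810 (permutation p = 0.022, adjusted p = 0.28). For Atp1b2, r ranged from -0.692 (bipolar cell) to 0.606 (endothelial cell and pericyte), and with the rod markers it was 0.226. For Atp1b3, r ranged from -0.431 (astrocyte and reactive glia) to 0.581 (Mueller glia). Between the members, r over the 8 libraries was 0.452 between Atp1b1 and Atp1b3, 0.0889 between Atp1b1 and Atp1b2, and 0.114 between Atp1b2 and Atp1b3. With each group's mean removed the 3 values were 0.422, 0.25 and 0.414, in the same order. All are descriptions without a test.

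Each member's nearest patterns were sought among 12278 named features with a mean of at least 50, by Pearson's r over the 8 libraries on the log2 scale. For Atp1b1 they were Adam22 (r = 0.972), Gpr61 (0.969) and Abcc8 (0.969), and 79 features had an r above 0.9. For Atp1b2 they were Med14 (0.993), Pigb (0.982) and Mtm1 (0.976), with 94 features above 0.9. For Atp1b3 they were Tmprss5 (0.950), Ccdc120 (0.949) and Ina (0.935), with 15 above 0.9. With 8 libraries and so many features, such values describe likeness and carry no test.

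The partners of the beta subunits did not pass either. Of 8 listed genes for catalytic subunits and for subunits of related pumps, 3 reached the minimum mean, and their log2 fold changes ran from 0.082 to 0.32. Atp1b4, a further member of the beta gene family, was at 0 in all 8 libraries, which allows up to 3 reads in each, for counting error only. Of the 7 FXYD genes, whose small membrane proteins tune the pump, 6 were tested: 3 lay above 0 and 3 below, 0 passed, and the median log2 fold change was -0.012, against -0.017 over all features tested. Fxyd1 (phospholemman) averaged 9206 ± 1936 normalized reads in TG and 10239 ± 1738 in WT, and Fxyd6 averaged 7328 ± 2676 in TG and 7080 ± 2863 in WT (SD, n = 4 each). Fxyd5 and Fxyd7 had log2 fold changes of -0.16 ± 0.28 and 0.11 ± 0.26 (SE). Fxyd2, the gamma subunit, stood at 0.0028 ± 0.37, with 135 ± 50.5 normalized reads in TG and 130 ± 35.1 in WT (SD, n = 4 each).

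Of 12 genes for proteins that bind or regulate the pump, 3 lay above 0 and 9 below, against 47.8% above 0 over all features tested. Their log2 fold changes ran from -2.5 to 0.36 with a median of -0.18, and 0 passed over all features. The first 3 named below are those with an unadjusted limma p under 0.05, a level that 4.64% of all features tested reached. The groups did not overlap for 1 of the 12, against 2.53% of all features tested. That gene was Nkain1, of a family of membrane proteins that bind the beta 1 subunit. It had 1316, 1478, 1103 and 1335 normalized reads in TG 2, TG 5, TG 6 and TG 8, against 944, 1005, 1101 and 1002 in WT 3, WT 4, WT 5 and WT 7. TG 6 and WT 5 nearly met, and the difference, 0.36 ± 0.15 (SE) on the log2 scale, had an adjusted p of 0.92 in limma. Nkain2, Nkain3 and Nkain4, of the same family, lay below 0, at -0.34, -0.072 and -0.18 on that scale. Sgk1, a kinase that raises sodium transport, averaged 11935 ± 889 in TG and 15362 ± 3143 in WT (SD, n = 4 each), with overlapping groups. Sik1, a salt-inducible kinase, averaged 46.1 ± 45.8 in TG and 172 ± 118 in WT, also with overlapping groups. Its log2 fold change was the -2.5 given above. It had 102, 64.3, 2.47 and 15.6 normalized reads in TG 2, TG 5, TG 6 and TG 8, so TG 6 was near 0. In WT 3, WT 4, WT 5 and WT 7 it had 126, 173, 56.0 and 334. Neither Sgk1 nor Sik1 passed.

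Of the other genes that move the same ions, 29 channels, exchangers and carriers were tested. Of these, 6 lay above 0 and 23 below, against 47.8% above 0 over all features tested. The median log2 fold change was -0.17, against -0.017 over all features tested, and 0 of the 29 passed. The 4 with the smallest p were Cngb1, a subunit of the rod channel that admits sodium (-0.44 ± 0.15, SE), the potassium channel gene Kcnk1 (0.41 ± 0.18), the sodium bicarbonate carrier gene Slc4a7 (-0.65 ± 0.31) and the sodium channel gene Scn8a (-0.48 ± 0.24). Each had an adjusted p of 0.92 (limma), and their groups overlapped. Of 8 calcium pump genes tested, relatives of the catalytic subunit, 1 lay above 0 and 7 below, with a median of -0.46 and 0 passed. Atp2c1, of the secretory pathway, stood at -0.58 ± 0.29 (SE), Atp2b1 at -0.25 ± 0.18 and Atp2a2, the pump of the endoplasmic reticulum, at -0.35 ± 0.28. Atp2b4 was low, averaging 2.66 ± 5.32 normalized reads in TG and 19.3 ± 14.3 in WT (SD, n = 4 each).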

How the data were processed

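Polyadenylated RNA was made into strand-marking libraries, per the labels' protocols. Alignment to mm10 (GRCm38) with STAR 2.4.0, and the use of SAMtools, Picard, FastQC and DESeq2, are given in the submitters' processing notes. The deposited values are a signal, read counts that the authors scaled with DESeq2, per the file headers. Dividing each column by its smallest positive value gave whole reads for 100% of values (tolerance 0.01). No 2 libraries were near-copies (lowest chi-square per feature 37.9).

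limma 3.58.1 under R 4.3.3, with a trend in the prior variance, was run on values to which 1 had been added before taking log2, over features with a mean of at least 10, with Benjamini-Hochberg adjustment over all of them and a threshold of 0.05. Fold changes are on that scale, which understates changes of low genes. edgeR 4.0.16 and DESeq2 1.42.0 on the recovered reads were alternatives. Intervals are 95%. Ratios and correlations used exact permutation (SciPy 1.17.1, and all orders of the 8 libraries). The fit was tested on simulated data. Where a listed symbol had several features, the one with the highest mean was used. Named genes were the members, genes of fixed lists (up to 4 by p in the ion and calcium lists) and the 3 nearest patterns per member, leaving out predicted and Riken symbols. The values of 1 gene among those that bind or regulate the pump are not reported here. Members and lists were chosen with earlier results of these data known.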

Additional observations from a re-analysis of the deposited data

How the results depend on the processing

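Each member was recomputed under 25 alternatives, and 0 of them brought a member past the threshold (smallest adjusted p 0.65). The log2 fold change of Atp1b2 stayed below 0 (-0.39 to -0.060 over all, -0.39 to -0.18 without 1 library) and that of Atp1b3 above 0 (0.081 to 0.56 in both). Atp1b1 ran from -0.076 to 0.29 without 1 library and was negative without WT 3 alone (-0.076). The difference in the log2 ratio ran from -0.59 to -0.21 for Atp1b2 to Atp1b1 and from 0.40 to 0.77 for Atp1b3 to Atp1b2 without 1 library. For Atp1b3 to Atp1b1 it ran from -0.14 to 0.28, and was negative with medians (-0.096), without TG 6 (-0.021) and without WT 5 (-0.14). The causes were not tested. The count of features passing, 2 in the limma fit and in edgeR, was 16 with DESeq2, 4 with males only, and 1 with a minimum mean of 50, no filter, no variance trend, a pseudocount of 0.5, rod markers as a term or sex as a term. It was 1 to 3 without 1 library. No paired analysis was made, because the labels pair no TG retina with a WT retina. Members had 935 to 27892 recovered reads per library, and with 4 libraries a group the interval of a member's ratio was as wide as 0.832 to 1.78.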

Other observations

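The values of Atp1b3 lay apart by the labelled sex of the mice, a split that was looked at after the data were seen and was not tested. Of all features tested, 3.2% separated the 3 females from the 5 males in either direction. In females Atp1b3 had 2023 and 2083 normalized reads in TG and 2694 in WT. In males it had 1458 and 1826 in TG and 988 to 1495 in WT. Neither of the other members showed such a separation. Atp1b1 had 6103 and 9771 in TG females, 9428 in the WT female, 5736 and 10133 in TG males and 4379 to 8131 in WT males. Atp1b2 had 14303 and 19141 in TG females, 27191 in the WT female, 18482 and 22224 in TG males and 20273 to 22255 in WT males. The only WT female was also the only WT left eye, so sex and side cannot be told apart in WT.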
